A study of Mus musculus with 91 samples.

Results

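RNA of 34 genes known from red pulp macrophages and other macrophages was followed in regulatory T cells (Tregs) sorted from mouse spleen, out of 20304 gene symbols present in at least 1 of 8 deposited count tables. The genes were picked by name, because many of them had lower counts late after an IL-2 fusion protein in these same libraries. No numeric limit was used in picking them, so there are no genes just inside or just outside a limit. The fusion protein libraries at 72 h and 168 h therefore chose the list, so their values and counts of called genes are given below as a description, and nothing is read from those counts. All 34 genes were in 7 tables, and the high-dose table held 33, without Fcgr1. Every one present passed the low-count filter of its table.

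Red pulp macrophages of the spleen engulf aged red blood cells, break down their haem and export the iron. Their development depends on the transcription factor Spi-C and, as for most tissue macrophages, on the growth factor receptor encoded by Csf1r. They are known for strong expression of the complement chain genes C1qa, C1qb and C1qc, of Vcam1, and of the iron exporter gene Slc40a1. T cells are not known as a main source of most of these transcripts, whereas genes of the lysosome such as Ctsb are used by many cell types.

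The animals were C57/BL6 mice carrying an RFP reporter of Foxp3, the transcription factor that defines Tregs, and every group shared this background. They received mIL-2/CD25, a fusion of mouse IL-2 with its receptor chain CD25 (FP), mouse IL-2 alone (IL2) or PBS. At 1.5 h and at 16 h there were 4 libraries each of FP, IL2 and PBS. At 4 h there were 3 FP, 4 IL2 and 3 PBS libraries, at 72 h 4 FP, 3 IL2 and 3 PBS libraries, and at 168 h 4 FP and 3 PBS libraries. An in vitro table (1.5 h) and a high-dose table, whose dose and time are not in the labels, each held 3 IL2 and 3 PBS libraries. A repeated-injection table (1.5 h) held 4 libraries after FP and a second FP (FP-FP), 3 after PBS and then FP (single) and 3 after PBS and PBS. All samples carry 1 wording of the treatment, 20 µg of FP or 100 µL of PBS and 1.5 h, so the dose of each group is not settled by it. Age and sex of the mice and the number of animals behind a library are not in the labels, so p-values measure the spread between libraries, which may be technical. Depth was 12.2 M to 46.1 M reads per library. Levels are given in CPM, the read count of a gene scaled to the size of its library, with library sizes adjusted by TMM.

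Some libraries stand apart or go against their labels. The library labelled single 1 of the repeated-injection table had Il2ra, the CD25 gene, at 566 CPM, against 1790 and 1710 CPM in the other single libraries, 1530 to 1820 CPM after FP-FP and 569 to 639 CPM after PBS-PBS. Its Cish, an IL-2 target gene, was at 170 CPM, against 530 and 464 CPM in the other single libraries and 140 to 179 CPM after PBS-PBS. Its response genes were therefore at the PBS level, and results of that table are given with and without it. For 2 libraries at 4 h the injected molecule given in the labels is not the one their titles name, and neither library entered a comparison. At 1.5 h, FP library 1 also stood apart for the macrophage genes, as described below. Foxp3 itself was at 511 to 619 CPM in FP and 481 to 514 CPM in PBS libraries at 72 h, as the label Treg requires.

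The 34 genes had reads in the PBS libraries of every table that listed them, at levels that differed widely between libraries. The summed CPM of the 33 genes present in all tables ran from 484 CPM in high-dose PBS library 2 to 4604 CPM in PBS library 4 of the 1.5 h table, with a median of 1362 CPM over the 26 PBS libraries. That is a 9.5-fold range among PBS libraries, with its ends in different tables. Within a table the range was narrower, such as 1342 to 4604 CPM at 1.5 h and 484 to 621 CPM in the high-dose table. Per kilobase of exon, the highest medians over these PBS libraries were those of Hmox1, the haem-degrading enzyme haem oxygenase 1, at 48.5 RPKM and of Ctsb, the lysosomal protease cathepsin B, at 42.9 RPKM. C1qb reached 23.9 RPKM, C1qa 23.4 RPKM and Apoe, the lipid carrier apolipoprotein E, 20.9 RPKM. The lowest were the scavenger receptor Marco at 0.678 RPKM and the high-affinity Fc receptor Fcgr1 at 0.996 RPKM. Ctsb gave the largest part of the summed CPM in each table, between 13.3% and 34.7% of it.

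**Figure D1:**
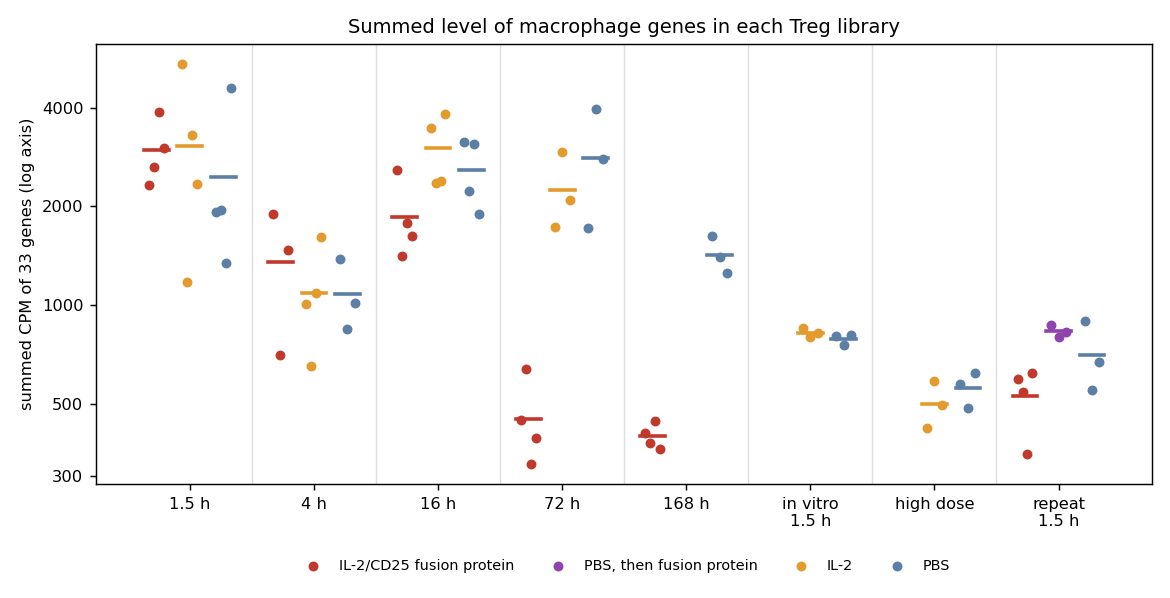
Summed level of the 33 macrophage genes present in all tables, in CPM on a log axis, in each library of the 8 tables, with FP, IL2 and PBS libraries side by side. The FP libraries at 72 h (327 to 638 CPM) and at 168 h (365 to 442 CPM) lie below the PBS libraries of their tables (1725 to 3954 CPM and 1256 to 1624 CPM), whereas groups overlap at 1.5 h and 4 h.

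C1qa, C1qb and C1qc encode the chains of C1q, the recognition molecule of the classical complement pathway. They lie side by side on the minus strand of chromosome 4 (GRCm38, GENCODE M21), C1qb at 136880129 to 136886187, C1qc at 136889804 to 136893065 and C1qa at 136895917 to 136898803. Over the 73 libraries assigned to a group, C1qa made up 25% to 37.2% of the C1q reads, C1qb 26.4% to 37.1% and C1qc 32.2% to 44.7%, so the proportions of the 3 chains varied much less than their sum. The C1q promoters below (RefSeq, GRCm38.p6, minus strand, 300 bases from 250 before to 50 after the start) are shown because these neighbours moved together. The Marco promoter is shown because Marco went its own way in 1 library, and that of Spic because it encodes the lineage factor. Capitals mark GAGGAA or its reverse complement TTCCTC, a core sequence of sites bound by the ETS factor PU.1.
C1qb chr4:136886151-136886450: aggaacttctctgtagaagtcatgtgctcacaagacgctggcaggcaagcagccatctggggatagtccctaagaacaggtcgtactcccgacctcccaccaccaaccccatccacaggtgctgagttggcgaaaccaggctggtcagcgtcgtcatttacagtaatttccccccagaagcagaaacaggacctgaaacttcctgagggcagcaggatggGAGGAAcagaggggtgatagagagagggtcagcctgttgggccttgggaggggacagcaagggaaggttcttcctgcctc
C1qc chr4:136892865-136893164: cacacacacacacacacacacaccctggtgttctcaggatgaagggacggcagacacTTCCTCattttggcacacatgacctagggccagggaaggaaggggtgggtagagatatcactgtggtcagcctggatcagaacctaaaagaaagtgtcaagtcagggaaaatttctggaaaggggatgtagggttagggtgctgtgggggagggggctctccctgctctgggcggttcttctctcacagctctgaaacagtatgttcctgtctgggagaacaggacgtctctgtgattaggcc
Marco chr1:120504975-120505274: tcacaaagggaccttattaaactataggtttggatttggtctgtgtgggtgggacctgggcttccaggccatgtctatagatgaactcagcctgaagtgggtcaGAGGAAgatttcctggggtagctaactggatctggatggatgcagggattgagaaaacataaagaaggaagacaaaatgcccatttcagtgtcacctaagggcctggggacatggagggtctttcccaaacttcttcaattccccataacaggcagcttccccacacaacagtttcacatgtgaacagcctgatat
Spic chr10:88682974-88683273: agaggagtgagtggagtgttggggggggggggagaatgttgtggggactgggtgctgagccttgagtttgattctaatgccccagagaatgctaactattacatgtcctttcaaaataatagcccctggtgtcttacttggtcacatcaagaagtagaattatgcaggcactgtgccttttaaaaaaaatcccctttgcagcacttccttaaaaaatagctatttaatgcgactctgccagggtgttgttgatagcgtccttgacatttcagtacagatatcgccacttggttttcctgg
The motif was searched on both strands, and no other motif was searched. GAGGAA or TTCCTC was present in 15 of the 22 genes that had a promoter in the RefSeq table, and in 28.3% of all 32851 promoters of that table. The former is a count of genes and the latter a share of promoters, so nothing is read from setting them side by side. The Spic window holds no match. A match is a run of letters and not a measured site.

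At 1.5 h and 4 h none of the 34 genes passed the test after either agent. With edgeR's quasi-likelihood test and Benjamini-Hochberg adjusted p below 0.01, 0 of 34 were called after FP at 1.5 h (6.67% of all genes) and 0 of 34 after IL2 (14.2% of all genes). FP against IL2 at 1.5 h gave 0 of 34 (0.0% of all genes). At an unadjusted p under 0.05 each of these 3 comparisons had 1 gene (26.7%, 36.2% and 5.83% of all genes in the same order), and DESeq2 called 0. C1qa was at 44.6, 55.4, 89.4 and 71.1 CPM in the FP libraries, 136, 26.4, 83.9 and 52.9 CPM in the IL2 libraries and 40.9, 39.9, 28.2 and 116 CPM in the PBS libraries. Slc40a1, which encodes the iron exporter ferroportin, was at 144, 172, 251 and 202 CPM after FP, 314, 68.0, 208 and 141 CPM after IL2, and 114, 130, 81.2 and 320 CPM after PBS. The groups overlapped for both genes, and the same libraries were high or low for nearly all of the list. PBS library 4 was the highest and PBS library 3 the lowest PBS library for all 34 genes, and IL2 library 2 was the lowest IL2 library for all 34. The direction was shared too, with 1 of 34 log2 differences below 0 after FP (51.0% of all genes) and 1 of 34 after IL2 (50.8% of all genes). The medians were 0.26 and 0.36, and the summed levels lay within or near the range of the PBS libraries.

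FP library 1 at 1.5 h departed from this common movement. Compared with the other 3 FP libraries, 8 genes were above their range, 18 below it and 8 within it. Marco, a scavenger receptor known from marginal zone macrophages, was at 78.0 CPM there, against 2.25 to 3.24 CPM in the other FP libraries. The next highest Marco level of any assigned library was 7.16 CPM, in FP library 4 at 4 h. Cd5l, a secreted factor of macrophages, was at 135 CPM against 34.5 to 46.4 CPM, and Adgre1, which encodes the macrophage antigen F4/80, at 176 CPM against 58.6 to 79.2 CPM. In the other direction, Vcam1, an adhesion molecule, was at 147 CPM against 419 to 661 CPM, and Itgad, the integrin alpha D chain, at 23.4 CPM against 71.3 to 124 CPM. Mrc1, the mannose receptor, stood at 28.4 CPM against 130 to 191 CPM, and the haemoglobin scavenger receptor Cd163 at 9.15 CPM against 32.6 to 75.5 CPM. The summed erythroid markers of that library were at 50.5 CPM, against 18.6 to 23.4 CPM in the other FP libraries. Its monocyte (41.0 against 21.6 to 32.4 CPM), neutrophil (9.51 against 3.48 to 5.68 CPM) and B cell and plasma cell markers (69.9 against 47.0 to 58.8 CPM) were higher too. Endothelial and stromal (11.8 against 19.0 to 30.8 CPM) and CD8 T and NK cell markers (13.3 against 14.2 to 15.8 CPM) were lower. The part of these lists in this was not tested. The sample identifier of FP library 1 carries the same date as those of the other libraries of the table, except FP library 2. Without FP library 1, the level of Marco after FP was 113% of the PBS level in place of 916%, that of Cd5l 136% in place of 219%, and that of Mrc1 129% in place of 103%. The number called stayed at 0 without it, and the median log2 difference was 0.375.

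**Figure D2:**
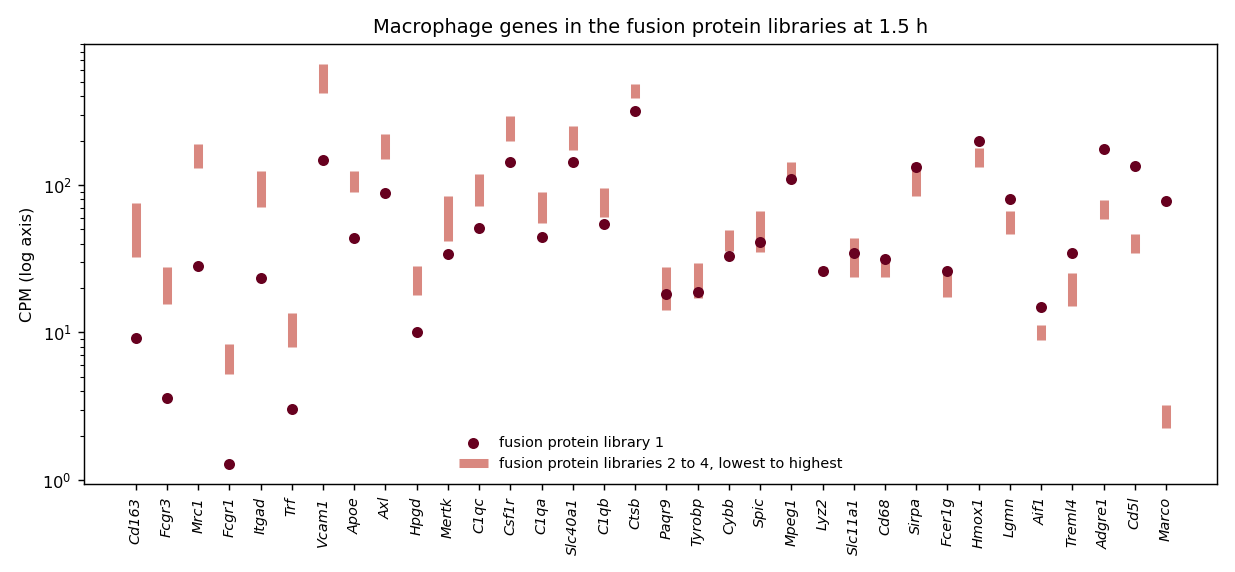
Levels of the macrophage genes at 1.5 h in CPM on a log axis, as a point for FP library 1 and as a bar from the lowest to the highest of the other 3 FP libraries, with genes ordered by how FP library 1 compares with them. Marco at 78.0 CPM lies far above the 2.25 to 3.24 CPM of the other FP libraries at the right end, and Cd163 at 9.15 CPM lies below 32.6 to 75.5 CPM at the left end.

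At 4 h, 0 of 34 genes were called after FP (0.913% of all genes), 0 of 34 after IL2 (0.652% of all genes) and 0 of 34 between FP and IL2 (0.0% of all genes). None reached an unadjusted p under 0.05 in these 3 comparisons (17.6%, 14% and 2.73% of all genes in the same order), and DESeq2 called 0. C1qa was at 45.5, 10.0 and 28.0 CPM after FP, 25.0, 8.75, 22.4 and 32.6 CPM after IL2, and 24.7, 13.2 and 18.5 CPM after PBS. Csf1r, the receptor for the macrophage growth factor CSF1, was at 97.3, 19.8 and 114 CPM after FP, 40.8, 30.9, 74.7 and 114 CPM after IL2, and 69.2, 36.0 and 71.7 CPM after PBS. Library 2 was low in all 3 groups for both genes. The summed level after FP ran from 703 to 1901 CPM, around the PBS range of 843 to 1383 CPM.

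At 16 h a few genes of the list, led by Hpgd and Mrc1, were called lower after FP, and none after IL2. After FP, 5 of 34 were lower than in PBS (14.3% of all genes): Hpgd, Mrc1, Tyrobp, Lyz2 and Apoe. That share is close to the share of all genes called lower in the same comparison. In bulk RNA of sorted cells, fewer cells of a type and less RNA per cell cannot be told apart. Hpgd, an enzyme that inactivates prostaglandins, was at 10.0, 6.98, 6.05 and 5.30 CPM in the FP libraries, against 19.5, 12.2, 22.5 and 15.5 CPM in the PBS libraries. Every FP library was below every PBS library, with a log2 difference of -1.29 (SE 0.23, edgeR adjusted p = 0.0003). Mrc1 was at 77.3, 37.4, 39.5 and 34.9 CPM after FP, against 128, 81.7, 100 and 105 CPM after PBS, a log2 difference of -1.13 (SE 0.25, edgeR adjusted p = 0.0015). Tyrobp, the signalling adaptor DAP12, averaged 12.2 ± 3.73 CPM after FP and 21.5 ± 3.81 CPM after PBS (SD, n = 4 each), with a log2 difference of -0.82 (SE 0.19, edgeR adjusted p = 0.0025). The groups did not overlap for these 3 genes, and groups without overlap, lower after FP, were found for 17.3% of all genes. Lyz2, lysozyme of myeloid cells, was at 7.70, 6.29, 16.6 and 11.5 CPM after FP, against 21.4, 13, 34.1 and 24.4 CPM after PBS (log2 difference -1.14, edgeR adjusted p = 0.0054). Apoe was at 60.5, 34.3, 48.2 and 51.2 CPM after FP, against 103, 69.1, 129 and 58.4 CPM after PBS (log2 difference -0.89, edgeR adjusted p = 0.0094). Both overlapped between the groups by at least 1 library. The reads of Lyz2 are uncertain, since its near copy Lyz1 could share them.

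The other 29 genes did not pass the test at 16 h, although 33 of 34 log2 differences were below 0, as were 54.9% of those of all genes. Their median was -0.45, against -0.051 for all genes, and 17 were lower at an unadjusted p under 0.05 (26.4% of all genes). C1qa was at 62.4, 29.5, 37.0 and 29.2 CPM after FP, against 55.5, 46.8, 71.5 and 36.3 CPM after PBS (log2 difference -0.41, edgeR adjusted p = 0.19). Slc40a1 was at 210, 118, 146 and 144 CPM after FP, against 307, 201, 268 and 177 CPM after PBS (log2 difference -0.62, edgeR adjusted p = 0.017). Csf1r had a log2 difference of -0.37 (edgeR adjusted p = 0.24), and Slc11a1, which encodes a metal transporter of phagosomes, of 0.01 (edgeR adjusted p = 0.98).

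Set against IL2 at the same time, 11 of 34 genes were lower after FP (14.9% of all genes). These were Cybb, Hpgd, Slc40a1, Tyrobp, Lgmn, Mrc1, Cd163, Axl, Paqr9, Trf and Fcer1g. Cybb, the catalytic subunit of the phagocyte NADPH oxidase, was at 40.1, 29.4, 36.2 and 27.7 CPM after FP, against 56.6, 54.7, 52.4 and 58.5 CPM after IL2 (log2 difference -0.73, edgeR adjusted p = 7.9e-05). Slc40a1 was at 210, 118, 146 and 144 CPM after FP, against 340, 226, 255 and 383 CPM after IL2 (log2 difference -0.96, edgeR adjusted p = 0.00078). For both genes every FP library was below every IL2 library. Groups without overlap were found for 7 genes of the list, against 24.0% of all genes. Cd163 was at 31.0, 11.9, 13.4 and 9.74 CPM after FP, against 54.7, 32.9, 28.7 and 52.1 CPM after IL2 (log2 difference -1.35, edgeR adjusted p = 0.0027). Axl, a receptor for apoptotic cells, was at 152, 86.7, 92.2 and 83.2 CPM after FP, against 207, 143, 146 and 209 CPM after IL2 (log2 difference -0.77, edgeR adjusted p = 0.0034). FP library 1 was above the lowest IL2 library for both. All 34 log2 differences between FP and IL2 were below 0, as were 55.6% of those of all genes, with a median of -0.75. IL2 against PBS at 16 h gave 0 of 34 (0.35% of all genes), with 1 gene at an unadjusted p under 0.05 (11.6% of all genes) and 0 by DESeq2.

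These counts depended on single libraries. FP library 1 was the highest of the 4 FP libraries at 16 h for 31 of 34 genes. Without it, 17 genes were lower than in PBS (2356 of all genes, against 2503 with all libraries) and 24 lower than after IL2 (2538 of all genes, against 2604). Without FP library 2, 3 or 4 the counts against PBS were 2, 3 and 2. Without PBS library 1, 2, 3 or 4 they were 4, 5, 2 and 7. Against IL2 the count was 5 without FP library 2, and also 5 without FP library 3 or FP library 4. It was 3, 10, 9 and 5 without IL2 library 1, 2, 3 or 4. In the fits without another library, 1728 to 2612 of all genes were called lower.

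Markers of other cells also differed at 16 h. The summed monocyte markers were at 15 to 17.2 CPM after FP, against 21.9 to 53.1 CPM after PBS. The most abundant of them after PBS was Ccr2, a gene also used by T cells, at a mean of 31.8 CPM. Dendritic cell markers were at 19.4 to 26.3 CPM against 29.1 to 32.1 CPM, B cell and plasma cell markers at 32.9 to 42.9 CPM against 47.7 to 63.5 CPM, and endothelial and stromal markers at 11.8 to 25.5 CPM against 20.2 to 28.5 CPM. The groups did not overlap for the first 3 of these lists, and did for the endothelial and stromal one. Their part in the result was not tested.

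At 72 h nearly the whole list was lower after FP, to a median of 8.33% of the PBS level. After FP, 33 of 34 genes were called lower than in PBS (13.1% of all genes), and the exception was Lgmn, the lysosomal protease legumain. Against IL2, whose comparison shares the same FP libraries, 32 of 34 were called lower (12.9% of all genes), without Ctsb and Lgmn. These FP libraries chose the list, so nothing is read from either count. Groups without overlap, lower after FP, were found for 33 genes against PBS (23.1% of all genes). IL2 itself gave 0 of 34 against PBS at 72 h (0.0% of all genes), with 0 at an unadjusted p under 0.05 (0.44% of all genes) and 0 by DESeq2. Its levels were between 67.4% of the PBS level for Treml4 and 110% for Lyz2.

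C1qa at 72 h was at 6.00, 7.96, 1.40 and 3.09 CPM after FP, 32.0, 50.6 and 37.6 CPM after IL2, and 27.8, 68.8 and 48.0 CPM after PBS. C1qb was at 4.74, 8.93, 1.59 and 3.72 CPM after FP, against 26.7, 71.5 and 46.0 CPM after PBS. C1qc was at 5.51, 11.4, 1.59 and 3.57 CPM after FP, against 35.5, 96.2 and 62.0 CPM after PBS. The 3 chains were thus at 9.57%, 9.87% and 8.54% of the PBS level, and FP library 3 was the lowest library for each. Csf1r was at 15.4, 25.3, 4.16 and 10.4 CPM after FP, 124, 212 and 162 CPM after IL2, and 118, 305 and 193 CPM after PBS. Spic, the gene of the lineage factor Spi-C, was at 2.45, 4.18, 0.889 and 1.40 CPM after FP, 29.7, 56.7 and 47.3 CPM after IL2, and 29.7, 95.1 and 68.7 CPM after PBS. The same libraries were high and low from gene to gene. FP library 3 was the lowest FP library for 33 of 34 genes and FP library 2 the highest for 29. PBS library 2 was the highest and PBS library 1 the lowest PBS library for all 34.

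Of the genes of iron and haem handling, all but Slc11a1 were below the list median of 8.33% of the PBS level. Genes of other roles were below that median too. Slc40a1 was at 8.29, 17.3, 1.54 and 7.84 CPM after FP, 154, 300 and 211 CPM after IL2, and 165, 431 and 314 CPM after PBS, which is 2.88% of the PBS level after FP. Hmox1 was at 7.25, 17.6, 4.26 and 6.77 CPM after FP, against 102, 239 and 154 CPM after PBS. Cd163 was at 1.31, 1.89, 0.187 and 0.405 CPM after FP, against 19.4, 53.5 and 37.5 CPM after PBS. In all 3 the highest FP library was well below the lowest PBS library. Slc11a1 was at 8.53% of the PBS level, and Trf, the iron carrier transferrin, at 3.99%. Trf had few reads, 0 to 14 per FP library, so its percentage is imprecise.

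Receptors for uptake were lower than in PBS too, over a wider range of percentages. Mertk, a receptor for apoptotic cells, was at 1.85, 3.47, 0.421 and 1.62 CPM after FP, against 34.8, 104 and 79.8 CPM after PBS, or 2.53% of the PBS level. Mrc1 was at 3.76, 8.66, 0.515 and 3.24 CPM after FP, against 76.7, 185 and 142 CPM after PBS. Axl, a receptor of the same family as Mertk, kept more, with 26.8, 40.6, 22.7 and 32.9 CPM after FP, against 124, 249 and 188 CPM after PBS. Axl was therefore at 16.5% of the PBS level, where Mertk was at 2.53%. Cd5l was at 14.1% and Apoe at 8.36%. Treml4, a receptor of the TREM family, was at 7.08%, and Marco at 8.30%, with 14 Marco reads in the 4 FP libraries together.

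Among surface and adhesion genes, Itgad was at 1.31, 4.53, 0.328 and 1.58 CPM after FP, against 41.7, 123 and 87.5 CPM after PBS. That was 2.31% of the PBS level, the lowest of the 34 genes at 72 h. Vcam1 was at 11.9, 22.5, 2.34 and 7.84 CPM after FP, 186, 357 and 225 CPM after IL2, and 185, 461 and 311 CPM after PBS. Adgre1 was at 4.34% and Sirpa, the receptor for CD47 that restrains engulfment, at 7.36%. Itgad shares exon bases with other annotated genes on both strands, so its reads are uncertain. The Fc receptors Fcgr1 and Fcgr3 were at 6.50% and 9.97% of the PBS level, and Fcer1g, the shared gamma chain of Fc receptors, at 11.9%. Fcgr3 is closely related to other low-affinity Fc receptor genes, so its reads could be shared. Tyrobp, the adaptor, kept 17.6%, with 2.94, 5.19, 1.97 and 2.24 CPM after FP against 10.2, 25.3 and 17.1 CPM after PBS.

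The least reduced genes were Ctsb, Lgmn and Cybb, which are genes of the lysosome and of killing. Ctsb was at 225, 284, 205 and 201 CPM after FP, 287, 387 and 287 CPM after IL2, and 304, 473 and 349 CPM after PBS, so FP kept 60.9% of the PBS level. Lgmn was at 31.5, 47.2, 27 and 29.2 CPM after FP, 37.0, 52.7 and 35.4 CPM after IL2, and 31.8, 69.0 and 45.3 CPM after PBS. Groups overlapped for Lgmn, at 69.3% of the PBS level, and did not overlap between FP and PBS for Ctsb. Cybb was at 50.1%, Lyz2 at 37.8%, the endosomal glycoprotein gene Cd68 at 25.4%, and Mpeg1, which encodes the pore-forming protein perforin-2, at 14.1%. Of the remaining genes, Aif1, which encodes the actin-binding protein Iba1, was at 24.0%, Paqr9 at 2.85% and Hpgd at 4.27%. In all, 23 genes were under 10% of the PBS level at 72 h and 4 were over 30%.

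**Figure D3:**
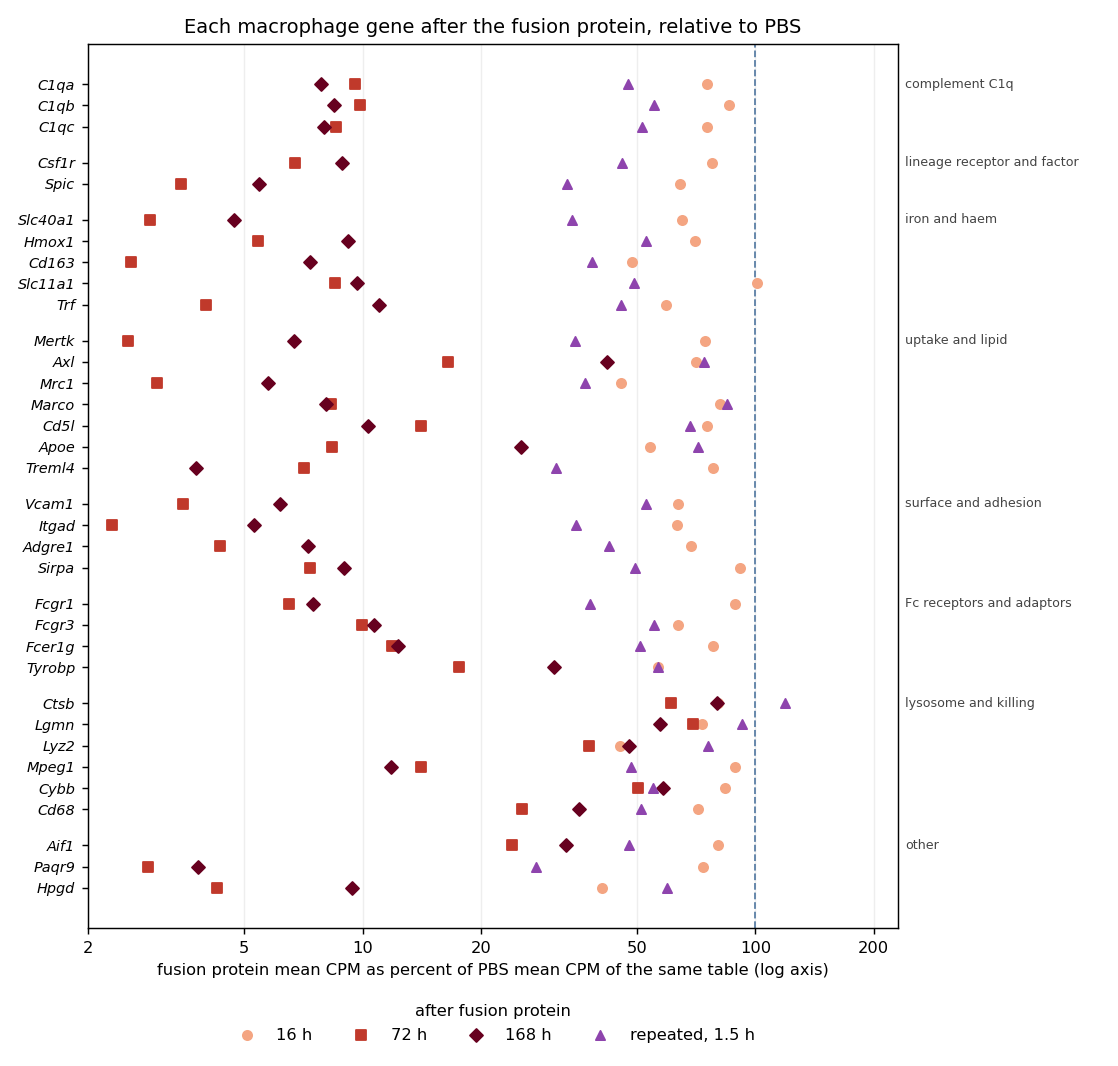
Mean level of each macrophage gene after FP at 16 h, 72 h and 168 h and after FP-FP at 1.5 h, as a percentage of the mean PBS level of the same table, on a log axis, with genes grouped by role and a dashed line at 100%. At 72 h the genes run from 2.31% for Itgad to 69.3% for Lgmn, and Ctsb, Lgmn and Cybb lie highest at 72 h and 168 h.

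At 168 h the list was still low after FP, at a median of 9.08% of the PBS level. Called lower were 27 of 34 genes (1.01% of all genes), without Marco, Trf, Aif1, Lyz2, Lgmn, Cybb and Ctsb. This comparison also chose the list, so nothing is read from the count. In 32 genes every FP library was below every PBS library (7.88% of all genes), and the groups overlapped for Cybb and Ctsb. C1qa was at 1.65, 1.36, 2.73 and 2.34 CPM after FP, against 29.8, 23.9 and 23.7 CPM after PBS. Slc40a1 was at 2.72, 4.22, 8.49 and 6.98 CPM after FP, against 129, 112 and 117 CPM after PBS. Vcam1 was at 2.95, 6.59, 14.2 and 11.9 CPM after FP, against 177, 134 and 123 CPM after PBS. FP library 3 was the highest FP library for Slc40a1 and Vcam1, and for 21 of the 34 genes. For Slc40a1 and Vcam1 it was still below each PBS library. Treml4 was at 0.236, 0.286, 0.745 and 0.260 CPM after FP, against 9.05, 9.62 and 11.8 CPM after PBS, which is 3.76% of the PBS level and the lowest of the list. Paqr9 was at 3.81%, Slc40a1 at 4.70%, Itgad at 5.28% and Spic at 5.46%.

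Ctsb, Cybb and Lgmn again kept most of their level at 168 h, and other genes of the lysosome and of killing did not. Lyz2 was at 47.8% of the PBS level, Cd68 at 35.6% and Mpeg1 at 11.8%. Ctsb was at 256, 224, 209 and 185 CPM after FP, against 326, 255 and 238 CPM after PBS, or 80.0% of the PBS level. Cybb was at 18.9, 21.0, 31.7 and 18.1 CPM after FP, against 37.0, 29.7 and 48.7 CPM after PBS, or 58.3%. Lgmn was at 20.2, 17.0, 13.6 and 13.2 CPM after FP, against 30.2, 30.3 and 23.3 CPM after PBS, or 57.2%. Ctsb, Cybb and Lgmn were the genes with the highest percentages at both times. Axl was at 43.4, 41.8, 64.0 and 38.7 CPM after FP, against 117, 108 and 112 CPM after PBS, or 41.9%, where it had 16.5% at 72 h. Apoe was at 10.6, 9.02, 13.2 and 12.5 CPM after FP, against 47.1, 54.3 and 32.7 CPM after PBS, or 25.3%, where it had 8.36% at 72 h. Percentages were higher at 168 h than at 72 h for 26 of 34 genes, and the difference between the times was not tested. The PBS level beneath these percentages was itself lower at 168 h, with summed levels of 1256 to 1624 CPM against 1725 to 3954 CPM. After FP the summed level was 365 to 442 CPM at 168 h and 327 to 638 CPM at 72 h. A higher percentage is thus not always a higher level after FP. Genes under 10% of the PBS level numbered 23 at 72 h and 20 at 168 h, and those over 30% numbered 4 and 8.

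The list did not move as a block relative to C1q. Dividing by the summed C1q level of the same library, Ctsb was at 22.0 after FP and 2.54 after PBS at 72 h (means over libraries), and at 34.8 and 3.11 at 168 h. Cybb was at 2.17 after FP and 0.316 after PBS at 72 h, and Lgmn at 3.08 and 0.312. Against C1q these were therefore higher after FP. The C1q sum of FP library 3 at 72 h was only 4.59 CPM, against 10.4 to 28.3 CPM in the other FP libraries. That library therefore weighs most in the 72 h means of Ctsb and Lgmn after FP, and their size is imprecise. Axl was also higher against C1q, with 2.80 after FP and 1.21 after PBS at 72 h, and 7.07 and 1.30 at 168 h. Vcam1 went the other way, at 0.698 after FP and 2.00 after PBS at 72 h, as did Slc40a1, at 0.554 and 1.89, and Mertk, at 0.121 and 0.446. At 168 h Vcam1 was at 1.20 after FP and 1.64 after PBS, and Slc40a1 at 0.776 and 1.38. Csf1r differed less, at 0.939 after FP and 1.28 after PBS at 72 h and at 1.16 and 1.04 at 168 h.

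**Figure D4:**
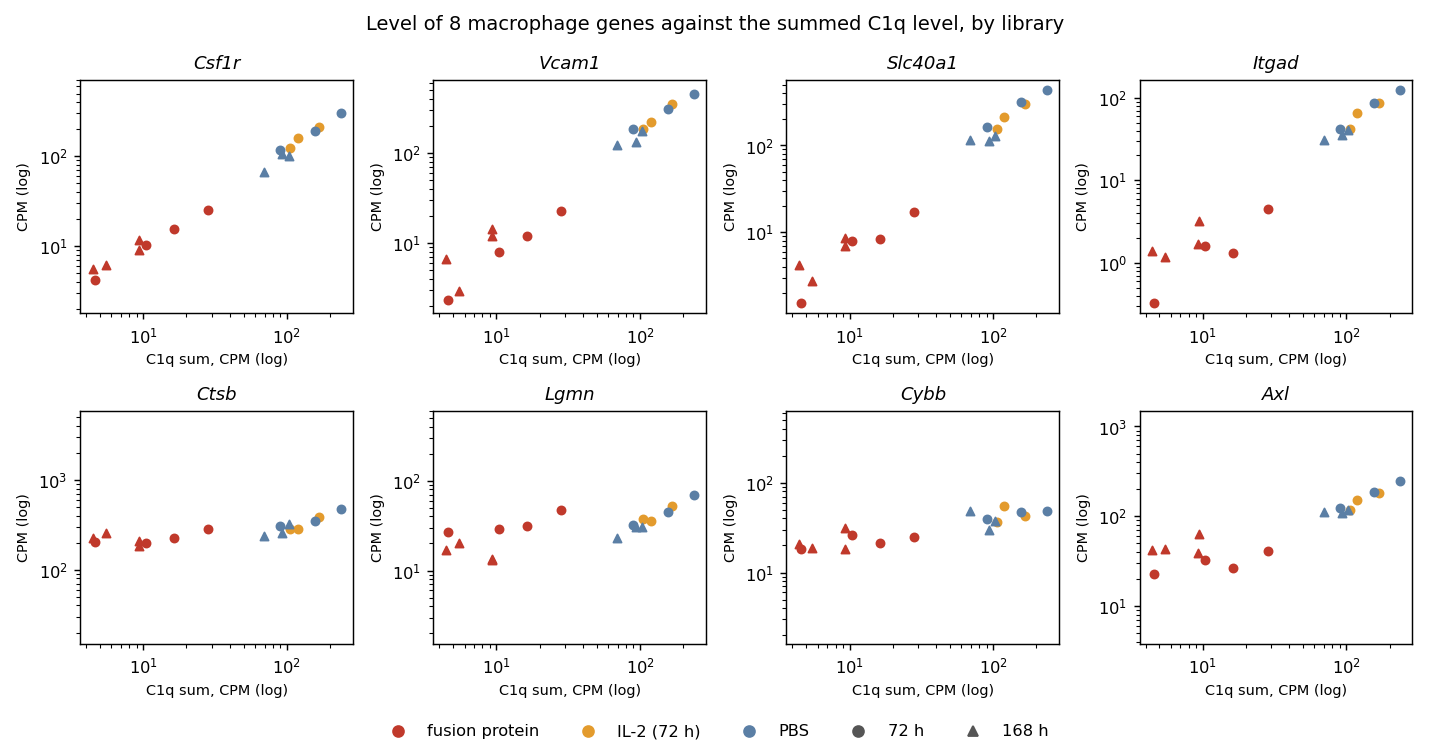
Level of 8 macrophage genes against the summed C1q level of the same library, both in CPM on log axes, at 72 h (circles) and 168 h (triangles), with 1 point per library. The FP points of Csf1r, Vcam1, Slc40a1 and Itgad lie low together with C1q, below the IL2 and PBS points, whereas those of Ctsb, Lgmn, Cybb and Axl lie closer to the PBS points on the vertical axis.

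Markers of other cells stood beside these late values, and their summed levels went in both directions. Summed monocyte markers were at 73.1 to 156 CPM after FP, against 26.3 to 47.3 CPM after PBS, at 72 h, and at 98.5 to 235 CPM against 27.8 to 49.4 CPM at 168 h. Of that list 6 of 8 were in the 72 h table. The monocyte chemokine receptor gene Ccr2, also used by T cells, was at 418% of the PBS level at 72 h, and F13a1, another monocyte marker, at 25.9%. Ccr2 was the most abundant of the list after PBS at 72 h, at a mean of 28.2 CPM. Most of the rise of the summed monocyte markers at 72 h therefore lay in Ccr2. Endothelial and stromal markers were at 3.88 to 5.78 CPM after FP, against 15.8 to 46.4 CPM after PBS, at 72 h, and at 2.84 to 4.06 CPM against 10.1 to 12.3 CPM at 168 h. Of that list 3 of 8 were in the 72 h table, and Stab2, a scavenger receptor of sinusoidal endothelium, was at 8.76% of the PBS level at 72 h and 21.8% at 168 h. Dendritic cell markers were at 13.2 to 17.0 CPM after FP, against 25.7 to 34.2 CPM after PBS, at 72 h. Among them Clec9a was at 4.97% and Siglech, a marker of plasmacytoid dendritic cells, at 8.90% of the PBS level. B cell and plasma cell markers were at 33.2 to 41.7 CPM after FP, against 35.9 to 57.7 CPM after PBS, at 72 h, with overlap. Treg and T cell markers were at 6369 to 7180 CPM after FP, against 4010 to 4690 CPM after PBS. Most of that difference lay in Il2ra, with means of 2030 CPM after FP and 615 CPM after PBS, and in Ikzf2, with 1690 and 1120 CPM. The other markers differed less in CPM, among them Foxp3 at 569 and 503 CPM, Cd3e at 661 and 597 CPM and Lck at 557 and 514 CPM. In proportion, however, Ctla4, at 108 and 53.8 CPM, and Tnfrsf18, at 184 and 85.3 CPM, differed more than Ikzf2. The part of these other cells in the macrophage gene values was not tested.

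**Figure D5:**
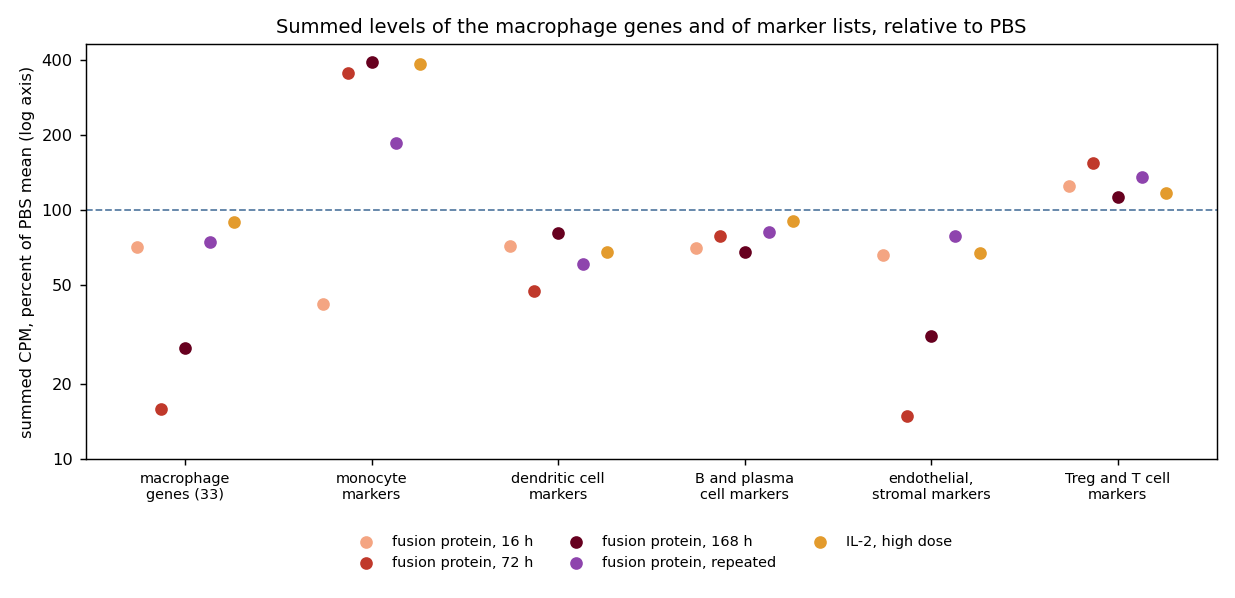
Mean summed level of the 33 macrophage genes and of marker lists of other cell types after FP at 16 h, 72 h and 168 h, after FP-FP and after high-dose IL2, as a percentage of the mean of the PBS libraries of the same table, on a log axis with a dashed line at 100%. At 72 h after FP the macrophage genes were at 16.0% and monocyte markers at 355%. The monocyte list includes Ccr2, a gene also used by T cells, in which most of its rise at 72 h lay. Its marker F13a1 was lower than in PBS at 72 h.

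In the high-dose table many of the genes had lower values after IL2, and none passed the test. Called were 0 of 33 (0.0% of all genes), the smallest edgeR adjusted p was 0.016, 16 were lower at an unadjusted p under 0.05 (9.61% of all genes) and DESeq2 called 7 lower (139 of all genes). Groups without overlap were found for 19 genes with lower values after IL2 (14.7% of all genes) and for 2 with higher values (9.61% of all genes). Apoe was at 7.38, 13.5 and 7.10 CPM after IL2, against 30.1, 32.5 and 30.8 CPM after PBS. Csf1r was at 9.53, 13.3 and 9.89 CPM after IL2, against 30.5, 32.4 and 32.2 CPM after PBS. Trf was at 0.156, 0.0875 and 0.399 CPM after IL2, against 1.31, 1.22 and 1.33 CPM after PBS. Every IL2 library was below every PBS library for these 3, and Mrc1 was at 25.7% of the PBS level. The 2 genes higher without overlap, a share below that of all genes, were Cybb and Lgmn. Cybb was at 52.0, 31.8 and 63.7 CPM after IL2, against 28.0, 20.3 and 24.5 CPM after PBS, and Lgmn at 24.1, 36.1 and 26.1 CPM against 13.6, 15.9 and 16.1 CPM. For both every IL2 library was above every PBS library. Cd5l was at 108% of the PBS level, Ctsb at 120% and Mpeg1 at 123%. Monocyte markers were at 70.4 to 97.8 CPM after IL2, against 19.7 to 27.1 CPM after PBS. Ccr2, also used by T cells, was the most abundant of these after PBS, at a mean of 8.89 CPM. Endothelial and stromal markers were at 3.11 to 4.22 CPM after IL2, against 5.07 to 6.56 CPM after PBS. Platelet markers were at 9.57 to 12.5 CPM after IL2, against 16.3 to 21.5 CPM after PBS. The part of these lists in the values was not tested.

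In vitro the list was level between IL2 and PBS, with small spread. Called were 0 of 34 (13.9% of all genes), with 5 at an unadjusted p under 0.05 (28.3% of all genes) and 0 by DESeq2. The summed level was 800 to 850 CPM after IL2, against 754 to 813 CPM after PBS. Trf was at 2.6, 2.86 and 3.06 CPM after IL2, against 4.55, 4.06 and 3.70 CPM after PBS. Hmox1 averaged 104 ± 0.0907 CPM after IL2 and 94.3 ± 9.14 CPM after PBS (SD, n = 3 each). Neither passed the adjusted test. Spic and Mertk stood higher against C1q here than in the other tables. The ratio of Spic to the summed C1q level averaged 0.936 in the in vitro PBS libraries, and that of Mertk 0.943.

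After repeated injection most of the list had lower values in the FP-FP libraries than in both other groups, mostly short of the threshold. Against PBS-PBS, 0 of 34 genes were called, where 113 of all genes were called in either direction and 0.256% of all genes lower. At an unadjusted p under 0.05, 28 were lower (11.0% of all genes), and 23 had groups without overlap (9.72% of all genes). DESeq2 called 9 lower (369 of all genes). The median level was 50.1% of that after PBS-PBS. Spic was at 2.48, 1.41, 1.23 and 2.54 CPM after FP-FP, 6.26, 5.75 and 6.63 CPM in the single libraries, and 7.5, 4.66 and 5.17 CPM after PBS-PBS. Vcam1 was at 29.5, 17.3, 11.2 and 33.6 CPM after FP-FP, 85.1, 77.5 and 91.9 CPM in the single libraries, and 56.5, 35.8 and 38.0 CPM after PBS-PBS. C1qa was at 6.61, 4.19, 2.6 and 7.08 CPM after FP-FP, 14.3, 17.1 and 16.3 CPM in the single libraries, and 15.6, 7.26 and 9.57 CPM after PBS-PBS. FP-FP libraries 2 and 3 were the lowest for all 3 genes. Ctsb differed from these, at 284, 308, 185 and 280 CPM after FP-FP, 258, 208 and 199 CPM in the single libraries, and 239, 180 and 249 CPM after PBS-PBS, with overlapping groups. Without the library labelled single 1, which shares in the estimate of spread, the count against PBS-PBS was still 0.

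Against the single libraries, 1 of 34 genes was called lower after FP-FP (0.145% of all genes). This was Slc11a1, at 2.70, 1.85, 1.97 and 2.75 CPM after FP-FP, against 6.77, 6.15 and 5.86 CPM in the single libraries (log2 difference -1.43, SE 0.21, edgeR adjusted p = 0.0089). Without the library labelled single 1 its edgeR adjusted p was 0.039 and 0 genes were called. Cd163 was at 2.48, 1.03, 1.23 and 2.84 CPM after FP-FP, against 9.67, 8.71 and 8.42 CPM in the single libraries (log2 difference -2.23, edgeR adjusted p = 0.015). In 30 genes every FP-FP library was below every single library (8.59% of all genes), and 29 were lower at an unadjusted p under 0.05 (8.51% of all genes). Without the library labelled single 1 that number was 28. DESeq2 called 22 genes lower (178 of all genes), and 14 without that library (105 of all genes). The exceptions included Ctsb at 119% of the level in the single libraries, Lyz2 at 126%, Lgmn at 109% and Marco at 101%.

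A single injection of FP called none of the genes at 1.5 h in this table either. Single against PBS-PBS gave 0 of 34 (0.0111% of all genes), with 1 at an unadjusted p under 0.05 (8.96% of all genes) and 0 by DESeq2, both with and without the library labelled single 1. Cd163, Mrc1, Vcam1 and Fcgr3 were above every PBS-PBS library in every single library, and groups without overlap in that direction made up 6.51% of all genes. Markers of other cells in this table were at 48.9 to 131 CPM after FP-FP, against 42.9 to 47.8 CPM after PBS-PBS, for monocytes. For dendritic cells they were at 12.3 to 15.8 CPM against 21.1 to 24.1 CPM. The most abundant monocyte marker after PBS-PBS was Ccr2, also used by T cells, at a mean of 30.6 CPM. The part of these markers was not tested.

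Across the 26 PBS libraries, with each table centred on its own mean, most of the list moved with C1q. Pearson's r with the summed C1q level on the log2 scale was 0.95 for Csf1r, Hmox1 and Mpeg1, 0.96 for Lgmn and 0.84 for Ctsb. It was lower for Lyz2 at 0.44, Cybb at 0.48, Marco at 0.66, Paqr9 at 0.69 and Mrc1 at 0.76. Genes outside the list were compared with the summed level of the list in place of C1q. The highest r, out of 9180, were those of Fcna (0.968), Syk (0.961), Pla2g15 (0.948), Abcc3 (0.945), Lyn (0.944) and Frmd4b (0.939). The libraries of a table share their preparation, so these values describe the libraries and carry no p. These most similar genes did not all behave like C1q after FP at 72 h. Fcna, a ficolin of macrophages, was at 5.32% of the PBS level, Abcc3 at 13% and Lyn at 24.3%, whereas Syk, a kinase also used by lymphocytes, was at 73.8% and Frmd4b at 91.3%.

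Further genes of the same pathways were followed as related lists. At 16 h after FP, 4 of 22 other macrophage genes were called lower and 2 higher, with a median log2 difference of -0.43. Among these, Gpnmb was at 31.1% and Fcna at 51.6% of the PBS level, and Dnase1l3 at 180%. Of 15 other iron and haem genes 3 were lower and 3 higher, among them Tfrc, the transferrin receptor gene also induced in dividing cells, at 216%. At 72 h, 18 of 23 other macrophage genes were lower and 1 higher (median log2 difference -2.9), with Cd14, the co-receptor for bacterial lipopolysaccharide, at 2.98% of the PBS level. Of 15 other iron and haem genes 2 were lower and 1 higher (median -0.019), so most of them did not pass the test, where Slc40a1 and Hmox1 had been at 2.88% and 5.42%. Of 20 other lysosome genes 5 were lower and 6 higher (median -0.23), with Ctsl at 21.2% and Ctsh at 21.0%. Of 11 other genes of Fc receptors and their signalling 6 were lower (median -1.7), with the paired receptor gene Pirb at 9.49%. At 168 h, 12 of 21 other macrophage genes were lower and 1 higher (median -2.3), with Fcna at 7.5%. As background to these counts, 14.3%, 13.1% and 1.01% of all genes were called lower at 16 h, 72 h and 168 h, and 14.4%, 17.3% and 0.201% were called higher.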

How the data were processed

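The deposited values were raw read counts per gene in 8 tables. Per the submitters' processing notes, the authors aligned reads to GRCm38 with STAR 2.5.0 and counted GENCODE M13 genes with featureCounts 1.5.0. Each deposited table holds genes over 0.5 CPM in at least 3 columns, checked on the values. The strand setting of the counting is not given in the sources used here. The exons of 2 of the genes (Trf, Itgad) overlap another gene on the same strand and those of 4 (Csf1r, Ctsb, Itgad, Vcam1) one on the opposite strand, so their reads can be mixed. The 91 samples were 75 libraries, since 16 were second runs, which were summed. Of these, 2 libraries at 4 h had contradictory labels and were left out, which leaves 73 libraries.

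Each table was fitted whole with edgeR 4.0.16 (R 4.3.3), with TMM scaling, filterByExpr, 1 mean per group and the 2-sided quasi-likelihood test. Genes below a Benjamini-Hochberg adjusted p of 0.01 over all genes tested were called, in 18 comparisons. Percentages of the PBS level are ratios of group means of CPM. DESeq2 1.42.0, other scalings, filters and thresholds, and leaving out each library were alternatives. The scripts were tested on simulated data. The members and gene lists were chosen with earlier results of these data known. The genes named outside the list are of 2 kinds. They are up to 4 called genes per related or marker list with the smallest p, and the 12 genes most correlated with the summed level of the list over PBS libraries. Genes named for standing apart were chosen after their values were seen.

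Same-numbered libraries deviated together (r over 0.1 in each pair) for IL2 against PBS at 4 h (0.797, 0.375 and 0.798) and at 72 h (0.423, 0.291 and 0.361). With the replicate number as a block both comparisons called 0 genes of the list, as without it. For FP against PBS at 4 h r was 0.56, 0.18 and 0.821, but the column name of FP library 2 shares a mark with that of PBS library 1, and its r with another PBS library reached 0.614. The number thus does not pair that library, and nothing is drawn from the block there.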

Additional observations from a re-analysis of the deposited data

Results flagged for a closer look

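Of 350 groups of 4 libraries tested for 1 library far from the others, 18 were picked out, and chance alone picks out about 1 group in 20. At 1.5 h, FP library 1 stood above the rest of its group for Marco (78.0 CPM) and Cd5l (135 CPM), and PBS library 4 for C1qa (116 CPM), Mertk (85.2 CPM), Marco (4.25 CPM) and Sirpa (187 CPM). At 16 h, FP library 1 stood above the other FP libraries for C1qc (76.0 CPM), Csf1r (219 CPM), Mertk (67.9 CPM), Axl (152 CPM), Mrc1 (77.3 CPM), Treml4 (25.7 CPM) and Itgad (74.8 CPM), and FP library 2 below them for Hmox1 (79.2 CPM). At 168 h, FP library 3 stood above the other FP libraries for Hmox1 (9.73 CPM), Treml4 (0.745 CPM) and Fcgr1 (0.456 CPM), and FP library 4 for Cd68 (7.80 CPM). The genes move together within a library, so these are not separate events.

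Some genes had groups without overlap in opposite directions in different comparisons, and none of these differences was tested. Each value is set against the range over the comparisons in which the same gene was lower without overlap, not over every comparison. Hmox1 had a log2 difference of 0.14 after IL2 in vitro, against -4.2 to -0.98 after FP at 72 h and 168 h and after high-dose IL2. Tyrobp had 0.41 in vitro, against -2.51 to -0.57. After a single FP injection against PBS-PBS, Cd163 had 0.85 (against -5.31 to -1.37), Mrc1 0.66 (-5.05 to -1.13), Vcam1 0.97 (-4.84 to -0.92) and Fcgr3 0.67 (-3.36 to -0.85). Lgmn had 0.92 after high-dose IL2, against -0.8 after FP at 168 h. Cybb had 0.48 after IL2 at 16 h and 1.02 after high-dose IL2, against -1.0 to -0.87 after FP.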

How the results depend on the processing

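No called value changed sign under the alternatives run, and the causes of the changes below were not tested. With an adjusted p under 0.05 the number of called genes of the list was 1 for IL2 at 1.5 h (24.6% of all genes in either direction). It was 11 lower for FP against PBS (21.7% of all genes) and 26 for FP against IL2 (23.1%) at 16 h, 1 in vitro (9.36%), 5 for high-dose IL2 (0.576%), 6 for FP-FP against PBS-PBS (2.34%) and 16 for FP-FP against single (0.958%). With DESeq2 it was 3 for FP against PBS at 16 h (2360 of all genes lower), 7 for high-dose IL2 (139), 9 for FP-FP against PBS-PBS (369) and 22 for FP-FP against single (178). The numbers do not pair the samples at 16 h or after repeated injection. With the replicate number as a block the count was 12 for FP against PBS (14.3% of all genes) and 19 for FP against IL2 (15.4%) at 16 h, and 0 for FP-FP against single (0.0%). It was also 0 for the last with only the compared groups fitted. The first sequencing run alone called 1 gene in vitro, where both runs summed called 0 of 34 and 13.9% of all genes.

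Leaving out each library in turn gave 2 to 17 genes for FP against PBS at 16 h (1728 to 2612 of all genes lower). For FP against IL2 at 16 h it gave 3 to 24 (1733 to 2538). At 72 h it gave 31 to 33 against PBS (1585 to 2912) and 29 to 32 against IL2 (1571 to 2911), and at 168 h 25 to 28 (110 to 168). The FP libraries at 72 h and 168 h chose the list, so nothing is read from these late counts. Leaving out each library gave 0 to 1 for IL2 at 1.5 h (1642 to 2416 of all genes in either direction). It gave 0 to 0 for FP-FP against single, and 0 in each of the other comparisons. Leaving out the library labelled single 1, chosen after seeing the data, gave 0 for FP-FP against PBS-PBS.

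Early log2 ratios of the summed level were small, and some changed sign. For FP against PBS it stayed above 0, at 0.27 at 1.5 h (0.07 to 0.77 leaving out each library) and 0.33 at 4 h (0.01 to 0.64). For IL2 against PBS the ratio was 0.32 at 1.5 h (-0.11 to 0.81 leaving out each library) and 0.01 at 4 h (-0.24 to 0.23). For FP against IL2 at 1.5 h it was -0.05 (-0.32 to 0.39, and 0.12 as a mean of logs). Late ratios moved with Ctsb and with averaging logs. For FP against PBS at 72 h it was -2.65, and -3.46 without the gene with the most reads. For FP against IL2 at 72 h it was -2.32, with -2.86 as a mean of logs and -3.12 without the top gene. At 168 h it was -1.84, with -2.49 and -2.68. For high-dose IL2 it was -0.16, with -0.58, -0.45 and, scaled to library totals, -0.38. For FP-FP it was -0.42 against PBS-PBS, with -0.79 and -0.87, and -0.66 against single, with -1.09 and -1.22. Genes with few reads late after FP (Marco, Trf, Fcgr1) are limited by depth.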

Other observations

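The 2 libraries at 4 h with contradictory labels had summed levels of the macrophage genes of 857 CPM and 1772 CPM, scaled to library totals, within the 623.1 to 1874 CPM of the 10 assigned libraries at that time. Further genes outside the list that moved with its summed level over the 26 PBS libraries were Itga9 (r 0.919), H2-Ab1 (0.918), Plxnb2 (0.916), Creg1 (0.91), Sdc3 (0.904) and H2-Aa (0.896). H2-Ab1 and H2-Aa encode chains of MHC class II. After FP at 72 h their levels were 30.9% and 30.5% of PBS, and H2-Ab1 was at 155% at 16 h. Itga9 was at 6.95%, Plxnb2 at 21.3%, Creg1 at 32.0% and Sdc3 at 24% at 72 h.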
